A study of Mus musculus with 6 samples.

Results

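The genes described here encode the inhibitors of cyclin-dependent kinases (CDKs) and the retinoblastoma family, the proteins that hold a cell back from entering S phase. They were chosen by name as members of these families, with earlier results of these data known: Cdkn1a, Cdkn1b and Cdkn1c of the Cip/Kip family, Cdkn2c and Cdkn2d of the INK4 family, and the pocket protein genes Rb1, Rbl1 and Rbl2. These 8 genes stood on 9 of the 13743 entries of the deposited expression table, because Rb1 had 2 entries. All 8 passed the minimum mean of 1 RPKM (read number divided by transcript length and by the library's mapped reads) and were among the 11428 entries tested.

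Messenger RNA was sequenced from mouse embryonic stem cells (ESCs) of strain C57/129 and genotype Dgcr8-/-. Dgcr8 is needed for the nuclear step of microRNA maturation, so all 3 groups lacked the canonical pathway for making microRNAs, the controls included. Cells received 50 nM of a miR-294 mimic or of an siRNA against Mbd2 (siMbd2), delivered with DharmaFECT1 16 h after plating, and each group was labelled with a time of 48 h. The CTR group was labelled as a control transfection, and the sources used here do not give the RNA it received. Each group had 2 libraries, and nothing in the labels says that they came from separate cultures or that the line was more than 1 clone, so the p-values cover only the spread from library to library, which may be technical.

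Cip/Kip proteins bind cyclin and CDK complexes, chiefly those of CDK2, whereas INK4 proteins bind CDK4 and CDK6 and keep them from D-type cyclins. Both brake the phosphorylation of pocket proteins, which in their unphosphorylated form bind E2F transcription factors and repress genes for DNA replication. Mouse ESCs have a short G1 phase and high CDK activity, and the miR-290 family, to which miR-294 belongs, is known to speed their passage from G1 to S phase.

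The mature sequences of miR-294 and its relatives show the letters through which the mimic pairs with its targets. In each line below, the bases in capitals are the seed, bases 2 to 8 from the 5′ end; sequences are from RefSeq (GRCm38.p6).
mmu-miR-294-3p: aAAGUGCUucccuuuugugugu
mmu-miR-291a-3p: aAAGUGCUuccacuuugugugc
mmu-miR-295-3p: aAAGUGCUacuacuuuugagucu
mmu-miR-302b-3p: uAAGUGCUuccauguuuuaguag
mmu-miR-290a-3p: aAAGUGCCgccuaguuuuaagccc
The first 4 share the seed AAGUGCU, and miR-290a-3p has AAGUGCC. The sequence of miR-294-3p lies at chr7:3220691-3220712 on the plus strand. Only miR-294 was transfected here; the others are shown because they share its seed or cluster.

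A message with a match to this seed carries AGCACTT, or the longer AGCACTTA, in its 3′ untranslated region (3′ UTR). The sites are printed because they separate the members: Cdkn1a, Rbl1 and Rbl2 hold such letters in their longest annotated 3′ UTR (GENCODE vM21, GRCm38, the assembly of mm10), and the other 5 do not. Capitals mark the match, and positions count from the first base after the stop codon.
Cdkn1a position 435: cagacctgaatAGCACTTtggaaaaatga
Cdkn1a position 1107: gtgggtgtcaaAGCACTTAgtgggtctgac
Rbl1 position 22: tgcctgatcaaAGCACTTttggattgttc
Rbl2 position 1384: tttttcaataaAGCACTTAtaaatta
The Cdkn1a matches lie at chr17:29099828-29099834 and chr17:29100500-29100507 on the plus strand. The Rbl1 match lies at chr2:157147478-157147484 on the minus strand, and the Rbl2 match at chr8:91123830-91123837 on the plus strand. The Rbl2 match stops 7 bases before the annotated end of its UTR.

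Of the 10807 tested genes with an annotated 3′ UTR, 3.69% held AGCACTTA in the longest one. A further 13.9% held AGCACTT as their best match and 3.31% held the offset match GCACTTA. A match of any of these kinds was found in 20.9% of these genes and in 3 of the 8 members. Over all annotated 3′ UTRs, such a match stood in 2 of 4 for Cdkn1a, 2 of 3 for Rbl2 and 1 of 1 for Rbl1. Which of these UTRs the cells used was not measured. The search read the transcript strand only, and AGCACTTA contains both shorter motifs, so each gene was placed in its longest class. The 5 members with no match had longest 3′ UTRs of 3439 bases in Cdkn1b, 688 in Cdkn1c, 373 in Cdkn2c, 907 in Cdkn2d and 1709 in Rb1, against a median of 1141. Not finding these letters says nothing about other modes of binding.

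**Figure D1:**
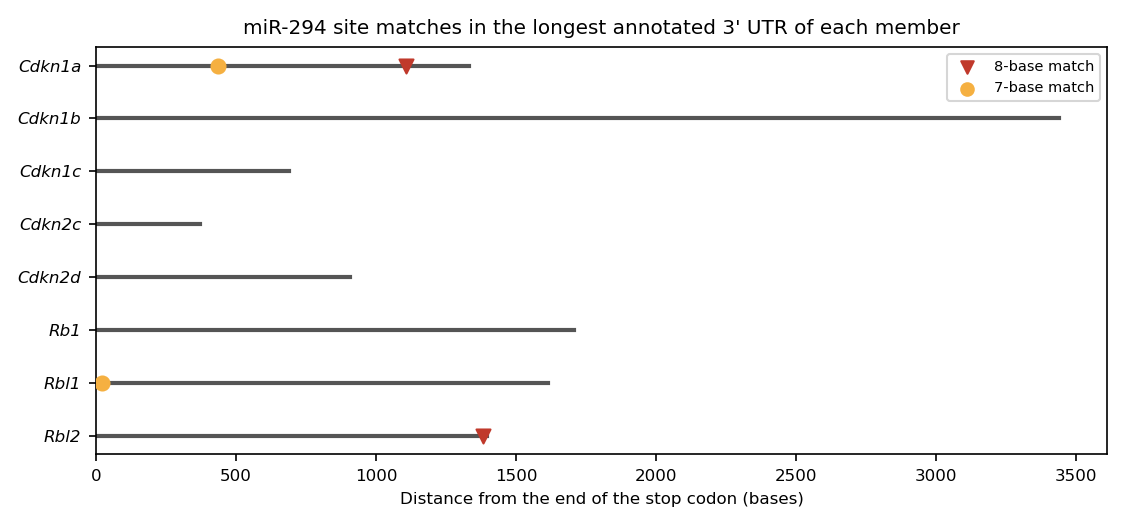
Map of the longest annotated 3′ UTR of each member, drawn to scale from the stop codon (x axis, bases), with 8-base and 7-base matches to the miR-294 seed marked. Cdkn1a has 2 matches, Rbl1 has 1 near the stop codon and Rbl2 has 1 at the far end; the other 5 genes have none.

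The summed RPKM of the 6 libraries ran from 429460 to 493079, and read depth is unknown because the table holds no counts. The CTR replicates differed from each other by a median of 0.136 (log2, absolute), compared with 0.063 for the miR-294 pair and 0.060 for the siMbd2 pair. Mbd2 checked the siRNA label: its level was 27.3 ± 0.78 RPKM in CTR, 11.8 ± 0.74 with miR-294 and 6.83 ± 0.70 with siMbd2 (SD, n = 2), and it fell in both treatments. Dgcr8 was listed at 7.96 ± 0.67, 6.90 ± 0.34 and 7.29 ± 0.07 RPKM (SD, n = 2), and a gene-level value does not show whether its transcript was intact. All 10 ESC markers, among them Pou5f1, Sox2 and Nanog, stood at 102 RPKM or more in every library. Their levels were not constant. With miR-294 4 rose and 4 fell, where 27.7% of all tested genes rose and 36.8% fell. With siMbd2 5 rose and 2 fell, against 19.5% and 14.9%. These counts depended on the processing, as shown by genes named after their values were seen. Under quantile normalization Tdgf1 changed by 0.013 with miR-294 (limma adjusted p 0.845) and lost its call. Esrrb changed by -0.35 (0.00297) and gained one. The rise of Dppa5a with siMbd2 was not called when only those groups were fitted (limma adjusted p 0.0855). The log2 changes with miR-294 were 0.52 for Pou5f1, -0.51 for Sox2, -0.80 for Nanog, 0.77 for Utf1 and 0.65 for Zfp42. Pou5f1 was named outside the rule given below. Of 8 fibroblast markers, which would mark feeder cells, 3 had an entry (Col1a1, Pdgfrb and Thy1), and their sum was 1.92 and 1.75 RPKM for the CTR pair, 4.15 and 3.82 for the miR-294 pair and 1.27 and 1.39 for the siMbd2 pair. Thy1 made up most of it and had changes of the same signs as Cdkn1c: its log2 change was 0.83 with miR-294 (limma adjusted p = 9.20e-05) and -0.30 with siMbd2 (0.0369). The Thy1 call with siMbd2 was lost without CTR replicate 1 (adjusted p 0.0724), either miR-294 library (0.0675 for each) or siMbd2 replicates 1 and 2 (0.207 and 0.0912). The other 2 entries, too low to be tested, did not follow Thy1. Col1a1, a defining fibroblast gene, was at 0.29 RPKM or less in every library. It was higher in both treatments, at 0.08 and 0.06 RPKM in CTR, 0.29 and 0.19 with miR-294, and 0.19 and 0.19 with siMbd2. Pdgfrb stood at 0.28 and 0.22 RPKM in CTR, 0.26 and 0.26 with miR-294, and 0.12 and 0.07 with siMbd2. Of 14 markers of differentiated lineages 11 had an entry; their sum was 42.8 and 42.7 RPKM in CTR, 22.2 and 21.2 for the miR-294 pair, and 38.5 and 35.5 in siMbd2. The sum is made up mainly of the neural genes Otx2, Pax6 and Sox1, and of the 6 lineage markers tested 5 fell and 1, Eomes, rose with miR-294. With siMbd2 3 of the 6 fell and 0 rose. Sox1 went from 8.25 and 8.38 RPKM in CTR to 4.88 and 4.18 with siMbd2, a log2 change of -0.76 (limma adjusted p = 0.00114). Gsc changed by -0.37 and Gata4, named after its value was seen, by -0.35. Eomes, named after its value was seen, stood at 1.55 ± 0.11 RPKM in CTR and 3.56 ± 0.42 with miR-294 (SD, n = 2), a log2 change of 0.84 (limma adjusted p = 1.49e-04). Low markers that were not tested were also higher in both miR-294 libraries, Cdx2 at 0.79 and 0.77 RPKM against 0.20 and 0.20 in CTR and Gata6 at 0.70 and 0.77 against 0.15 and 0.18. Foxa2 and Sox17 were at or under 0.17 RPKM in every library. These marker levels moved with the groups alongside the member genes below, and their part in the members' levels was not tested.

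With miR-294, 7 of the 8 members fell and 1, Cdkn1c, rose, so no member kept its control level. Over all tested genes 36.8% fell and 27.7% rose, so that 64.5% were called and a call in this comparison was common. The members' median change was -1.0 on the log2(RPKM + 1) scale, with a range from -1.79 to 1.13, against a median of -0.08 for all tested genes. The libraries of the 2 groups did not overlap for any member, 7 being lower and 1 higher, which was true of 46% and 35% of all tested genes in these directions. Calls were made with limma at a Benjamini-Hochberg adjusted p under 0.05. With 2 libraries a group the smallest p of an exact permutation test is 0.333, so the calls rest on the spread shared in the fit. That spread was taken as equal in the 3 groups, although the CTR pair differed by 0.136 against 0.063 and 0.060. It may therefore be too small for comparisons with CTR and too large for miR-294 against siMbd2.

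**Figure D2:**
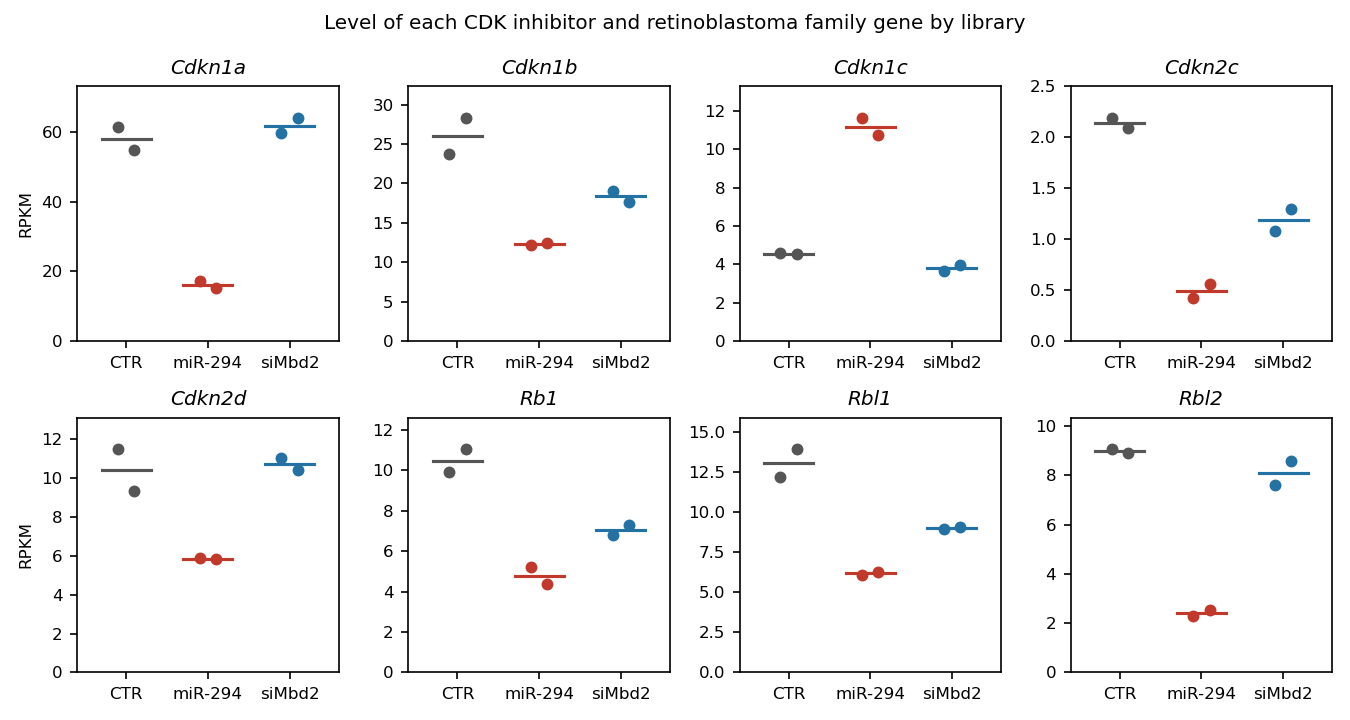
Level of each member in RPKM (y axis, from 0, own scale in each panel) in the 3 groups, with 1 point for each library and a line at the group mean. In miR-294 both libraries sit below both CTR libraries for 7 genes, and for Cdkn1c both sit above, at 11.7 and 10.7 against 4.58 and 4.53 RPKM.

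Cdkn1a (chr17:29090976-29100727, plus strand) encodes p21, the Cip/Kip inhibitor best known as a target of p53, and it was the most abundant member in every group. It was measured at 61.4 and 54.8 RPKM in CTR, 17.2 and 15.1 with miR-294, and 59.6 and 64.1 with siMbd2. The miR-294 pair stood far below the other 4 libraries, which overlapped each other. The CTR mean of 58.1 ± 4.70 RPKM was 3.60 times the miR-294 mean of 16.2 ± 1.47 (SD, n = 2). The log2 change was -1.79 (SE 0.084, limma adjusted p = 2.19e-06), the 46th lowest of all 11428 tested entries.

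Cdkn1b (chr6:134920401-134925513, plus strand) encodes p27, the Cip/Kip inhibitor of quiescent cells, which SCF with Skp2 marks for degradation. Its levels were 23.7 and 28.3 RPKM in CTR, 12.2 and 12.5 with miR-294, and 19.0 and 17.7 with siMbd2. Here the groups formed 3 separate levels, with CTR highest and miR-294 lowest. The log2 change with miR-294 was -1.02 (95% interval -1.22 to -0.81, limma adjusted p = 2.90e-05), and the CTR mean was 2.11 times the miR-294 mean.

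Cdkn1c (chr7:143458339-143461050, minus strand) encodes p57, an imprinted Cip/Kip inhibitor that is expressed mainly from the maternal allele. It was the one member that rose: 4.58 and 4.53 RPKM in CTR became 11.7 and 10.7 in miR-294, while siMbd2 gave 3.63 and 3.95. Both miR-294 libraries stood clear above the other 4. The miR-294 mean of 11.2 ± 0.64 RPKM was 2.46 times the CTR mean of 4.56 ± 0.04 (SD, n = 2), a log2 change of 1.13 (SE 0.086, limma adjusted p = 1.35e-05). This placed it 135th from the highest of the tested entries.

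The Cip/Kip genes together therefore lost level and changed in make-up. Their summed RPKM was 88.7 ± 1.50 in CTR, 39.7 ± 1.90 with miR-294 and 83.9 ± 2.46 with siMbd2 (SD, n = 2). Because RPKM is scaled to transcript length, shares within the sum can be set side by side. Cdkn1a made up 68.4% and 62.5% of it in the CTR libraries but 41.9% and 39.4% in miR-294. Cdkn1c went the other way, with 5.10% and 5.17% in CTR and 28.4% and 28.0% in miR-294. Cdkn1b kept a similar part, with 26.5% and 32.3% in CTR and 29.7% and 32.5% in miR-294. The level of Cdkn1a was 13.4 and 12.1 times that of Cdkn1c in the CTR libraries, 1.48 and 1.41 times with miR-294, and 16.4 and 16.2 times with siMbd2.

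**Figure D3:**
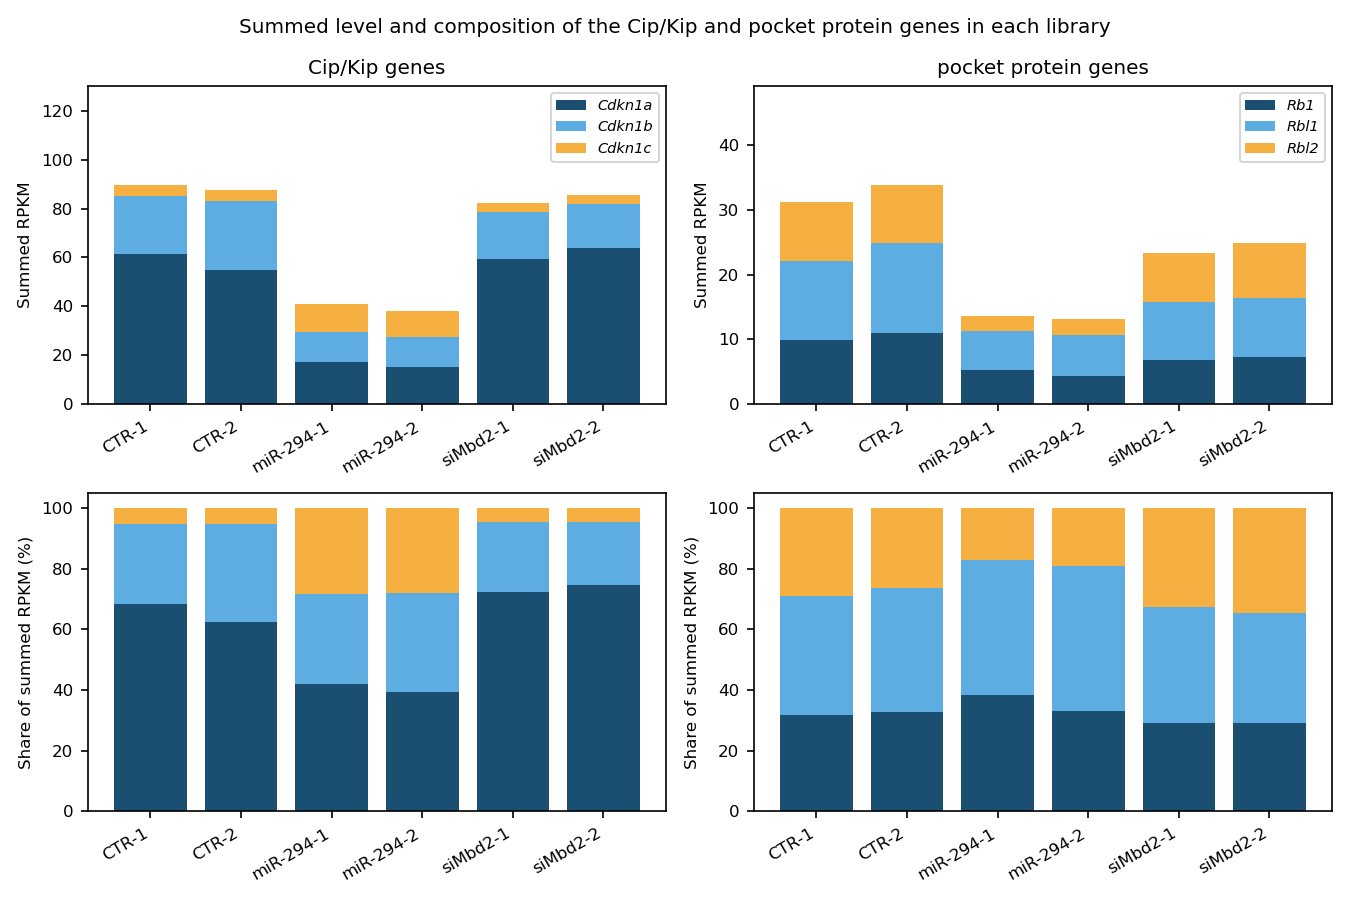
Upper panels: summed RPKM of the Cip/Kip genes and of the pocket protein genes in each library; lower panels: share of each gene in that sum (%). With miR-294 the Cip/Kip sum is lower and Cdkn1c takes 28.4% and 28.0% of it, and in the pocket protein sum the share of Rbl2 is 17.0% and 19.1% against 29.1% and 26.3% in CTR.

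The INK4 genes were lower with miR-294 as well. Cdkn2c (chr4:109660876-109667189, minus strand), which encodes p18, was the least abundant member, at 2.19 and 2.09 RPKM in CTR, 0.42 and 0.56 with miR-294, and 1.08 and 1.30 with siMbd2. All 3 groups were separate, in the order CTR, siMbd2, miR-294. The CTR mean was 4.37 times the miR-294 mean, the highest such ratio among the members that fell, yet the log2 change was only -1.08 (95% interval -1.31 to -0.85, limma adjusted p = 3.55e-05). The pseudocount of 1 understates the change of a gene at this level, and with a pseudocount of 0.1 the Cdkn2c change was -1.93.

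Cdkn2d (chr9:21288410-21291407, minus strand) encodes p19 of the INK4 family, a different protein from the p19Arf product of Cdkn2a. It was measured at 11.5 and 9.36 RPKM in CTR, 5.88 and 5.84 with miR-294, and 11.0 and 10.4 with siMbd2. The siMbd2 libraries lay between the CTR libraries, and the miR-294 pair lay below all 4. The log2 change with miR-294 was -0.73 (95% interval -0.96 to -0.50, limma adjusted p = 2.88e-04), the smallest fall among the members. The sum of both INK4 genes was 12.6 ± 1.57 RPKM in CTR, 6.35 ± 0.07 with miR-294 and 11.9 ± 0.27 with siMbd2 (SD, n = 2).

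Among the pocket proteins, Rb1 (chr14:73183673-73325822, minus strand) encodes the retinoblastoma protein itself. Its main entry gave 9.90 and 11.0 RPKM in CTR, 5.21 and 4.35 with miR-294, and 6.80 and 7.27 with siMbd2. A further Rb1 entry did not pass the minimum, at 1.20 and 0.39 in CTR, 1.15 and 0 with miR-294, and 1.01 and 0 with siMbd2, and the table does not say which transcript each entry stands for. In the main entry the 3 groups were separate. The log2 change with miR-294 was -0.99 (SE 0.101, limma adjusted p = 5.62e-05).

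Rbl1 (chr2:157145893-157204534, minus strand) encodes p107, which pairs mainly with E2F4 and E2F5 in cycling cells. It stood at 12.2 and 13.9 RPKM in CTR, 6.10 and 6.29 with miR-294, and 8.96 and 9.06 with siMbd2. As for Rb1, the siMbd2 libraries lay between the other groups without touching them. The log2 change with miR-294 was -0.96 (95% interval -1.16 to -0.77, limma adjusted p = 2.82e-05).

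Rbl2 (chr8:91070057-91123844, plus strand) encodes p130, the pocket protein typical of quiescent cells and a subunit of the DREAM repressor complex. Its levels were 9.06 and 8.91 RPKM in CTR, 2.31 and 2.52 with miR-294, and 7.60 and 8.60 with siMbd2. The miR-294 pair lay far below the rest. The log2 change was -1.55 (SE 0.090, limma adjusted p = 4.31e-06), the 107th lowest of the tested entries, and the CTR mean was 3.72 times the miR-294 mean.

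The pocket protein sum was 32.5 ± 1.91 RPKM in CTR, 13.4 ± 0.33 with miR-294 and 24.1 ± 1.11 with siMbd2 (SD, n = 2). Within it Rbl2 lost share with miR-294, from 29.1% and 26.3% to 17.0% and 19.1%, while Rbl1 went from 39.1% and 41.1% to 44.8% and 47.8%. With siMbd2 the share of Rbl2 was instead 32.5% and 34.5%. The ratio of Rbl1 to Rbl2 was 1.35 and 1.56 in CTR, 2.64 and 2.50 with miR-294, and 1.18 and 1.05 with siMbd2, so the 3 groups did not overlap. In CTR the order of the members by mean level was Cdkn1a, Cdkn1b, Rbl1, Rb1, Cdkn2d, Rbl2, Cdkn1c and Cdkn2c, and the libraries of Rb1 and Cdkn2d overlapped, as the sole such pair of neighbours. In miR-294 it was Cdkn1a, Cdkn1b, Cdkn1c, Rbl1, Cdkn2d, Rb1, Rbl2 and Cdkn2c, and in siMbd2 it was Cdkn1a, Cdkn1b, Cdkn2d, Rbl1, Rbl2, Rb1, Cdkn1c and Cdkn2c, with no overlapping neighbours in either.

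The members with a seed match can be set beside the printed sites. Cdkn1a and Rbl2, the holders of AGCACTTA, had the lowest log2 changes of the 8 with a pseudocount of 1, at -1.79 and -1.55. With a pseudocount of 0.1 the lowest was Cdkn2c, which held no match, at -1.93 against -1.84 for Cdkn1a and -1.85 for Rbl2. Rbl1, with AGCACTT alone, changed by -0.96, close to the -1.02 of Cdkn1b and the -0.99 of Rb1, which held no match of the 3 kinds. The longest 3′ UTR of Rb1 did hold 1 copy of the shorter GCACTT, and that of Cdkn1b held none. Among all tested genes with AGCACTTA the median change was -0.37 and 61.2% fell, compared with -0.22 and 49.2% for AGCACTT and -0.03 and 33.4% for genes with no match of the 3 kinds. Members without a match of the 3 kinds thus fell too, and whether any member was bound by miR-294 was not measured.

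With siMbd2, 4 of the 8 members fell, none rose and 4 were not called. Of all tested genes 14.9% fell and 19.5% rose, 34.4% together. The members' median change was -0.35 against 0.02 for all tested genes. Cdkn1c, which was not called, had a limma p of 0.0356 before adjustment. The fallen members were Cdkn1b, Cdkn2c, Rb1 and Rbl1, with means 29.5%, 44.4%, 32.8% and 31.0% below CTR. Both treatments were compared with the same CTR libraries, so the 2 comparisons are not independent.

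The calls with siMbd2 rested on smaller changes than those with miR-294. Cdkn1b changed by -0.48 on the log2 scale (95% interval -0.69 to -0.27, limma adjusted p = 0.00527), and without siMbd2 replicate 2 the change was -0.43 with an adjusted p of 0.0592 and was no longer called. Rb1 changed by -0.51 (95% interval -0.74 to -0.28, limma adjusted p = 0.00625), and without siMbd2 replicate 1 it gave -0.47 with an adjusted p of 0.0553. The calls of the other fallen pair held in every fit with 1 library left out: Cdkn2c changed by -0.52 (limma adjusted p = 0.00556) and Rbl1 by -0.49 (limma adjusted p = 0.00385).

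The 4 members that were not called with siMbd2 differed among themselves. Cdkn1a had a change of 0.09 (95% interval -0.10 to 0.28, limma adjusted p = 0.440), and for Cdkn2d it was 0.04 (-0.19 to 0.27, limma adjusted p = 0.774). Those intervals leave out falls of the size that Cdkn1b and Rb1 showed. Cdkn1c had a change of -0.21 (-0.41 to -0.02, limma adjusted p = 0.0843) and Rbl2 one of -0.14 (-0.34 to 0.07, limma adjusted p = 0.272). For both, each siMbd2 library was below each CTR library; in all, 6 members were lower in this sense and none was higher, which held for 30.6% and 37% of all tested genes.

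**Figure D4:**
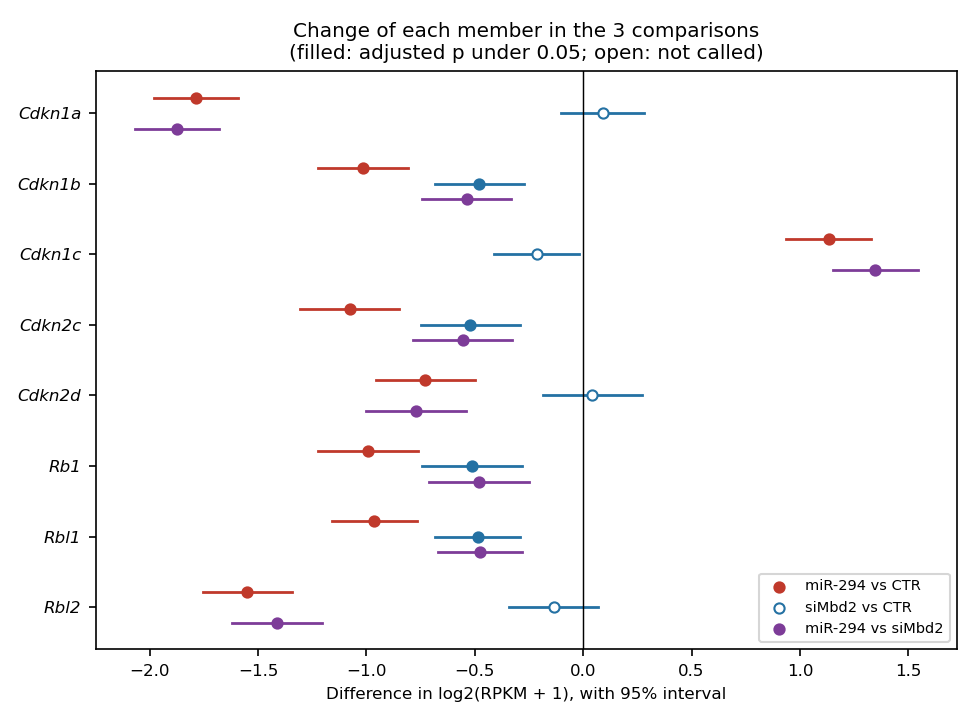
Difference in log2(RPKM + 1) (x axis, with 95% interval) of each member for both treatments against CTR and for miR-294 against siMbd2; filled points have an adjusted p under 0.05. Cdkn1a and Rbl2 lie lowest with miR-294, at -1.79 and -1.55, and near 0 with siMbd2, and Cdkn1c lies at 1.13 with miR-294 and at -0.21 with siMbd2.

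The direct contrast of miR-294 with siMbd2 tests whether the treatments differed from each other. All 8 members were called, 7 lower and 1 higher with miR-294, where 35.5% of all tested genes were lower and 21.9% higher, 57.4% together. The libraries did not overlap for any member, 7 being lower and 1 higher, as for 49.6% and 34.5% of all tested genes. Cdkn1a showed the greatest difference, -1.87 (limma adjusted p = 3.79e-06), followed by Rbl2 at -1.41 (limma adjusted p = 1.00e-05). Cdkn1c was higher by 1.35 (limma adjusted p = 1.00e-05), the 40th highest of all entries. Cdkn2d, at -0.77 (limma adjusted p = 3.01e-04), came next among the lower members.

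For the 4 members that fell in both treatments the difference between them was about as large as the siMbd2 change itself. It was -0.54 for Cdkn1b, -0.56 for Cdkn2c, -0.48 for Rb1 and -0.48 for Rbl1 (limma adjusted p from 0.00117 to 0.00379). Under quantile normalization Rb1 gave -0.28 with an adjusted p of 0.0557 and was not called, and Rbl1 gave -0.29. That scaling moved the median of all genes in this contrast from -0.08 to 0.03. Higher entries made up 38.1% of those called as deposited, 47.7% after median-of-ratios scaling and 51.5% after quantile normalization.

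The genes around these members were taken from lists of the pathway's other parts. The other CDK inhibitor genes in the table, Cdkn2a and Cdkn2b, fell with miR-294 and were not called with siMbd2. Cdkn2a, which encodes p16 and p19Arf in 1 entry, was listed at 43.9 and 37.4 RPKM in CTR, 21.5 and 18.7 with miR-294, and 42.5 and 37.8 with siMbd2, a log2 change of -0.98 with miR-294 (limma adjusted p = 5.68e-05). Cdkn2b, which encodes p15, stood at 3.94 ± 0.94 RPKM in CTR and 2.40 ± 0.25 in miR-294 (SD, n = 2), a change of -0.53 (limma adjusted p = 0.00734), and without miR-294 replicate 1 the adjusted p was 0.0539. The table thus showed lower levels with miR-294 for every CDK inhibitor gene examined except Cdkn1c.

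Of 13 G1/S cyclin and kinase genes, 5 rose, 4 fell and 4 were not called with miR-294. Ccne1, the E-type cyclin that activates CDK2, rose from 45.8 ± 0.91 to 103 ± 5.73 RPKM (SD, n = 2), a log2 change of 1.15. Ccnd1, the D-type cyclin that activates CDK4 and CDK6, fell from 43.3 ± 1.13 to 25.5 ± 0.69 RPKM (SD, n = 2), a change of -0.74. Cdk6 fell from 9.18 ± 1.24 to 5.76 ± 0.32 RPKM (SD, n = 2), a change of -0.58. Ccne1 and Ccnd1 thus went opposite ways. The remaining calls, named after their values were seen, were Ccnh, Mnat1, Cdc25a and Ccnd3 higher and Ccnd2 and Cdk2 lower, with Ccnd3 turned to -0.011 under quantile normalization. The adjusted p of Ccnd3 was 0.0970 and 0.131 without miR-294 replicates 1 and 2, and that of Mnat1 was 0.169 and 0.0579. Under quantile normalization Mnat1 had a change of 0.14 with an adjusted p of 0.0958. For Ccnd3 it was also 0.0551 and 0.0553 without siMbd2 replicates 1 and 2.

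The partners of the pocket proteins were also split. With miR-294, 3 of 10 E2F and DP genes rose, 5 fell and 2 were not called. The count of calls was 5 without miR-294 replicate 1 and 5 without replicate 2. E2f4, the repressor E2F that binds Rbl1 and Rbl2 proteins, rose from 42.7 ± 2.85 to 81.6 ± 0.33 RPKM (SD, n = 2), a log2 change of 0.92. E2f7, an E2F that acts without pocket proteins, fell from 10.9 ± 0.99 to 5.71 ± 0.32 RPKM (SD, n = 2), a change of -0.82. E2f1, an activator, changed by -0.57, and the other calls, named after their values were seen, were E2f8 and Tfdp1 higher and E2f2, E2f5 and E2f6 lower. Without miR-294 replicates 1 and 2 the adjusted p was 0.0511 and 0.0771 for E2f8, 0.104 and 0.0988 for Tfdp1, and 0.0523 and 0.180 for E2f2. E2f2 was also lost without siMbd2 replicates 1 and 2, at 0.0531 and 0.0532. Under quantile normalization Tfdp1 gave 0.037 (adjusted p 0.553) and E2f2 -0.022 (0.828), and after median-of-ratios scaling E2f2 gave -0.21 (0.0554).

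Of 6 MuvB and DREAM genes, which encode the complex that Rbl2 and Rbl1 proteins join, 2 rose, 2 fell and 2 were not called. Mybl2, whose product takes the place of the pocket protein in that complex, rose from 134 ± 12.4 to 222 ± 4.84 RPKM (SD, n = 2), a log2 change of 0.73. Lin52 fell from 7.55 ± 0.49 to 4.04 ± 0.18 RPKM (SD, n = 2), a change of -0.76. Lin37 changed by -0.32, with an adjusted p of 0.0525 without miR-294 replicate 1, and Rbbp4, named after its value was seen, was higher, with an adjusted p of 0.158 without miR-294 replicate 2. Under quantile normalization Rbbp4 had a change of 0.0050 and an adjusted p of 0.962.

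Of 10 genes for the ubiquitin ligases that degrade the inhibitors, 2 rose, 5 fell and 3 were not called with miR-294. Dtl, the adaptor through which CRL4 targets p21, fell from 27.9 ± 0.20 to 16.4 ± 0.28 RPKM (SD, n = 2), a log2 change of -0.73. Skp2, the F-box protein that targets p27, fell from 28.7 ± 0.83 to 19.2 ± 0.58 RPKM (SD, n = 2), a change of -0.55. Rnf123, a ligase subunit for p27 in G1, changed by -0.58, with an adjusted p of 0.0606 without miR-294 replicate 2. Cul1 and Cul4a were the other lower genes and Cks1b and Rbx1 the higher ones, named after their values were seen. Under quantile normalization Cks1b had a change of 0.11 with an adjusted p of 0.0858 and was not called. No protein was measured.

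Genes that E2F controls had more higher than lower calls on the deposited scale: of 17 tested members of an 18-gene list, 9 rose, 4 fell and 4 were not called with miR-294, with a median change of 0.22 against -0.08 for all tested genes. Under quantile normalization 5 were higher and 5 lower, so the excess of higher calls was not kept. Orc1, an origin recognition subunit, rose from 16.1 ± 0.68 to 29.6 ± 0.24 RPKM (SD, n = 2), a log2 change of 0.84. The helicase subunits Mcm5 and Mcm2 changed by 0.67 and 0.57. The 4 lower genes, named after their values were seen, were Pola1, Tk1, Rrm1 and Gins1. Without miR-294 replicates 1 and 2 the adjusted p of Tk1 was 0.0607 and 0.0961 and that of Gins1 was 0.0959 and 0.187. Tk1 was also not called without CTR replicate 1 (0.0678), and Gins1 without siMbd2 replicates 1 and 2 (0.0694 and 0.0696) or after median-of-ratios scaling (0.154).

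Among 9 tested genes of 11 listed as transcriptional regulators of the Cip/Kip genes, 2 rose, 2 fell and 5 were not called with miR-294, and 2 were called without miR-294 replicate 2. Myc, which with Zbtb17 represses Cdkn1a, had the greatest change: 1.84 and 2.41 RPKM in CTR, 26.0 and 26.9 with miR-294, and 5.71 and 6.91 with siMbd2. Its log2 change was 3.14 with miR-294 (limma adjusted p = 1.14e-06) and 1.23 with siMbd2 (limma adjusted p = 3.95e-04). Trp53, the gene of p53, was listed at 177 RPKM in CTR and 150 in miR-294, a change of -0.24 (limma adjusted p = 0.00711, and 0.0752 without miR-294 replicate 2; named after its value was seen). Foxo4 changed by 0.30, and Foxo1 by -0.26, with an adjusted p of 0.396 and a change of -0.07 under quantile normalization. Without miR-294 replicates 1 and 2 the adjusted p of Foxo1 was 0.0581 and 0.0981.

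Cdkn1c lies in an imprinted domain of chromosome 7, and 6 of 8 listed genes of that domain were in the table. Of these, 3 rose, 1 fell and 2 were not called with miR-294, and Cdkn1c itself is counted among the 3. Phlda2, a maternally expressed neighbour that limits placental growth, was listed at 9.32 and 7.92 RPKM in CTR, 42.8 and 45.9 with miR-294, and 15.2 and 15.7 with siMbd2. It rose in both treatments, by 2.24 with miR-294 (limma adjusted p = 1.26e-06) and by 0.77 with siMbd2 (limma adjusted p = 6.91e-04), and so differed from Cdkn1c in siMbd2, where Cdkn1c was not called. Nap1l4, named after its value was seen, changed by 0.38, and Cd81 fell from 164 ± 19.8 to 93.4 ± 0.38 RPKM (SD, n = 2). Tssc4 and Slc22a18 were not called, so the domain's genes did not move as a block.

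**Figure D5:**
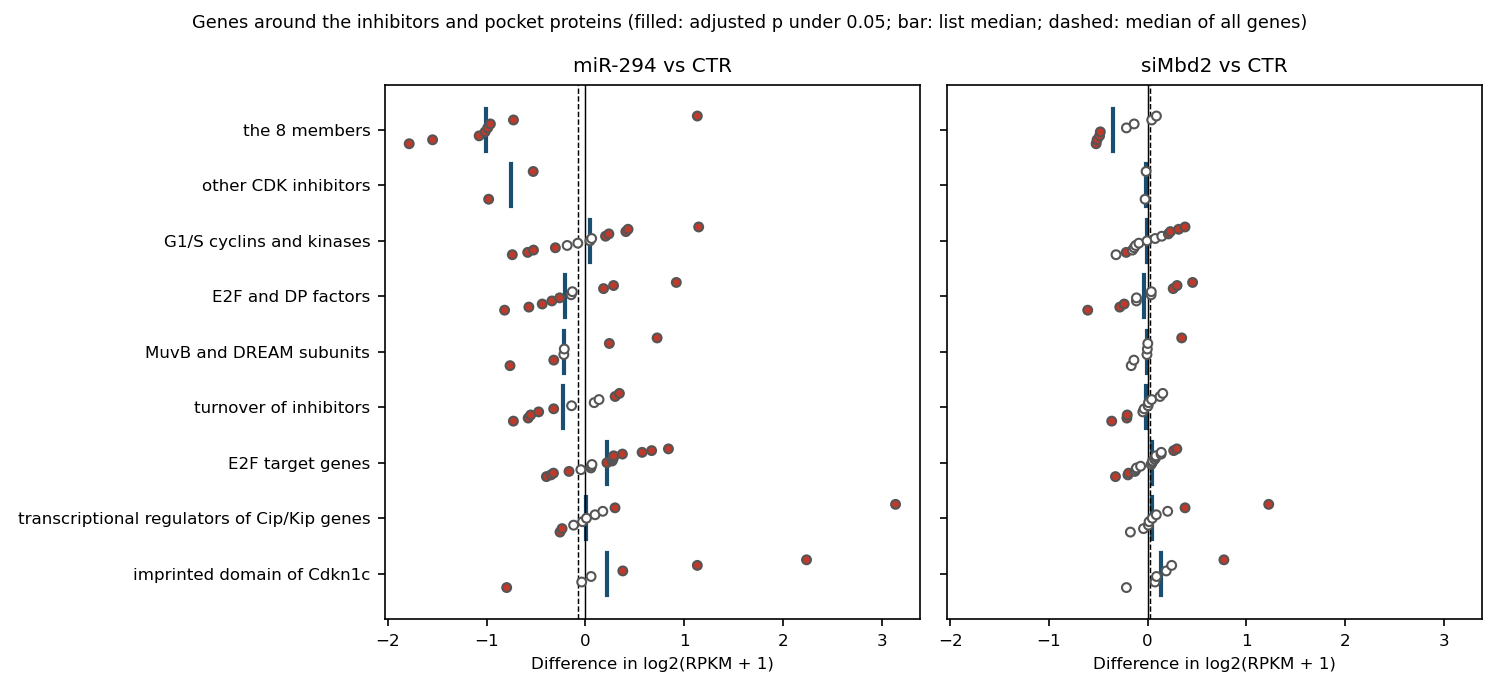
Difference in log2(RPKM + 1) (x axis) of each tested gene for miR-294 against CTR and for siMbd2 against CTR. The first row holds the members and the other rows the pathway lists. Filled points have an adjusted p under 0.05. A bar stands at the median of each row and a dashed line at the median of all genes. With miR-294 most lists hold genes on both sides of 0, the E2F target list has a median of 0.22, and points are closer to 0 with siMbd2.

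With siMbd2 the lists had fewer calls, as did all tested genes, of which 34.4% were called against 64.5% with miR-294. Neither of the other CDK inhibitors was called (limma p before adjustment 0.884 for Cdkn2a and 0.852 for Cdkn2b). In the larger lists 4 G1/S genes rose and 1 fell of 13, 3 E2F and DP genes rose and 3 fell of 10, and 1 MuvB gene rose of 6. Of the ligase genes 3 fell of 10, of the E2F targets 2 rose and 2 fell of 17, and of the Cip/Kip regulators 2 rose of 9. These counts hung on single libraries, and under quantile normalization the E2F targets had 2 higher and 5 lower calls. Without CTR replicate 1 the calls became 8 for G1/S genes, 2 for MuvB, 5 for ligases, 9 for E2F targets and 3 for the imprinted domain, in which 1 was called with all libraries. Without CTR replicate 2 they were 5 for ligases. Without siMbd2 replicate 1 they were 1 for G1/S genes, 2 for E2F and DP, 1 for ligases, 1 for E2F targets and 1 for regulators. Without siMbd2 replicate 2 they were 0, 2, 0, 1 and 1 in the same order, and 0 for MuvB. Without miR-294 replicate 1, and likewise without replicate 2, the calls were 2 for G1/S genes and 1 for ligases.

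Some of these calls held in every fit without 1 library. E2f4 rose from 42.7 ± 2.85 to 58.8 ± 1.43 RPKM with siMbd2 (SD, n = 2), a log2 change of 0.46 (limma adjusted p = 0.00147). Tyms, thymidylate synthase, changed by -0.33 (limma adjusted p = 0.00267), as did Myc and Phlda2 by the amounts above. Other calls were lost while the size of the change stayed similar. Ccne1 changed by 0.31, Mybl2 by 0.35 and Cul1 by -0.36. Without siMbd2 replicate 2 the values were 0.29, 0.33 and -0.34, with adjusted p-values of 0.0705, 0.0653 and 0.0546. Ccnd3 changed by 0.38 and Mcm5 by 0.30. Without siMbd2 replicate 1 the values were 0.36 and 0.29, with adjusted p-values of 0.0647 and 0.0740, and without replicate 2 they were 0.40 and 0.30, with 0.0594 and 0.0716.

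E2f3 changed by -0.61 with siMbd2, and its adjusted p was 0.0622 without CTR replicate 2 and 0.112 without siMbd2 replicate 1. Zbtb17, the partner of Myc at the Cdkn1a promoter, changed by 0.38, with an adjusted p of 0.0547 without CTR replicate 2 and of 0.126 and 0.109 without siMbd2 replicates 1 and 2. Ddb1, the CRL4 core subunit, changed by -0.21, and its call was lost without siMbd2 replicates 1 and 2, with adjusted p-values of 0.142 and 0.181, and without miR-294 replicates 1 and 2, with 0.0743 and 0.0740.

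Promoters were searched because pocket proteins act through E2F sites and some of these genes are E2F targets themselves. RefSeq start sites (GRCm38.p6) gave 8 windows, from 250 bases before to 50 after the start, for 6 of the members. The motifs TTTCGCGC, TTTGGCGC, TTTCCCGC and TTTGGCGG were sought on both strands, and 1 of the windows, that of Rbl1, held one. It is shown because it was the only match found. Capitals mark the motif, whose first base lies 18 bases before the start, at chr2:157204545-157204552.
Rbl1 promoter: aagaaggcgatTTTCGCGCgctttgtcgcg
Of all 32851 promoter windows 0.323% held TTTCGCGC, 0.514% TTTGGCGC, 1.07% TTTCCCGC and 0.56% TTTGGCGG, and 2.37% held any of them. A match is letters only, not a measured site.

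Because Mbd2 binds methylated CpG, the CpG dinucleotides of the same windows were counted. Rbl1 had 29, Cdkn1b 30, Cdkn2d 22 and Rbl2 14, and the window pairs of Cdkn2c and Cdkn1a had 33 and 8, and 2 and 23. The median over all windows was 7. The richest windows of members that fell with siMbd2 held 29 (Rbl1), 30 (Cdkn1b) and 33 (Cdkn2c). Those of members not called held 14 (Rbl2), 22 (Cdkn2d) and 23 (Cdkn1a). Rb1, which fell, and Cdkn1c, which was not called, had no window. A link between CpG number and the change was not tested, and methylation was not measured.

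Cdkn1a and Cdkn1c had the most extreme patterns in opposite directions, and the genes nearest to each were sought by the distance between log2(RPKM + 1) values in the 6 libraries, after each gene's CTR mean was subtracted. The nearest to Cdkn1a were Gbp2, a guanylate-binding protein gene (distance 0.168), Bhlhe40, a basic helix-loop-helix repressor gene (0.228), and Clic1, an intracellular chloride channel gene (0.236). Bhlhe40 was listed at 19.1 and 18.8 RPKM in CTR, 5.70 and 5.06 with miR-294, and 20.0 and 20.3 with siMbd2. Like Cdkn1a, it was low in the miR-294 pair alone. The nearest to Cdkn1c were Catip (0.174), Tmem92 (0.175) and Arg2 (0.187), the gene of mitochondrial arginase. Arg2 was listed at 1.09 and 1.01 RPKM in CTR, 3.26 and 3.04 with miR-294, and 0.78 and 0.76 with siMbd2, and all 3 were low genes, under 7 RPKM in every library.

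The authors' deposited table also gives its own ratio of each treatment over the control, which it calls mock. In the authors' deposited table the miR-294 ratios of the members ran from 0.23 for Cdkn2c to 2.46 for Cdkn1c. The siMbd2 ratios in the authors' deposited table ran from 0.55 for Cdkn2c to 1.06 for Cdkn1a, among the entries tested. Fewer cells carrying a message and less of it per cell cannot be told apart in these bulk libraries.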

How the data were processed

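Per the labels' protocols, total RNA was extracted with Trizol and sequenced as paired-end Illumina libraries, and each sample is an average of sequencing lanes. The submitters' processing notes name CASAVA 1.7, STAR 2.3.0, Cufflinks and the mm10 build, without roles. The authors deposited RPKM values to 2 decimals, with no counts, and a column of fold (ratio) values for each treatment, per the file headers; the sources used here do not give the annotation, the strandedness or the rule for listing genes. Without strand, reads of overlapping or antisense genes cannot be told apart.

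From these, log2(RPKM + 1) was computed and entries whose mean reached 1 RPKM were fitted in 1 linear model with 3 groups (limma 3.58.1, R 4.3.3; empirical Bayes with an intensity trend, two-sided, Benjamini-Hochberg over the 11428 entries of each contrast, threshold 0.05). Rose, fell and changed refer to such calls. A log2 change on this scale understates that of low genes. The script was checked on simulated data. Sites, promoters and figures used Python 3.11.15, numpy 2.4.6, pandas 2.3.3 and matplotlib 3.10.9, with GENCODE vM21 transcripts and RefSeq tables.

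The members, lists and naming rule were chosen with earlier results of these data known. The rule names, per list, up to 3 called genes with the largest change in miR-294 vs CTR and up to 2 in siMbd2 vs CTR whose groups do not overlap, the 3 genes nearest to Cdkn1a and to Cdkn1c, and Mbd2 and Dgcr8. The alternatives were another pseudocount, other minimum means, median-of-ratios and quantile scaling, no trend, fits of the compared groups alone, a replicate block and leaving out each library.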

Additional observations from a re-analysis of the deposited data

How the results depend on the processing

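The 24 member changes (8 members, 3 comparisons) were recomputed under 14 alternatives wherever these gave a value: 328 values kept direction and side of the threshold, 3 kept direction but were no longer called, and 1 turned. Cdkn2d in siMbd2 vs CTR, not called, went from 0.04 to -0.092 without CTR replicate 2, and its values with 1 library left out ran from -0.092 to 0.18; the lost calls are the Cdkn1b and Rb1 calls given above, and the cause was not tested. Members called numbered 8 in miR-294 vs CTR under every alternative that tested all 8. In siMbd2 vs CTR they were 4, and 3 without siMbd2 replicate 1 or 2; in miR-294 vs siMbd2 they were 8, and 7 under quantile normalization. With a minimum mean of 5 RPKM, and in miR-294 vs siMbd2 with only those groups fitted, Cdkn2c was under the minimum, so 7 members were tested; in miR-294 vs siMbd2 all 7 were called. Ccnd3 in miR-294 vs CTR went from 0.24 to -0.011 under quantile normalization, and the cause was not tested. A pseudocount of 0.1 moved Cdkn2c to -0.80 in siMbd2 vs CTR and -1.13 in miR-294 vs siMbd2.

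Leaving out each library in turn gave from 5873 to 7801 calls over all genes in miR-294 vs CTR, from 1405 to 5387 in siMbd2 vs CTR and from 4756 to 7757 in miR-294 vs siMbd2. The lone library of a group was then assumed to vary like the others. In siMbd2 vs CTR the count with all libraries was 3933. It was lower without either siMbd2 or either miR-294 replicate, and higher without either CTR replicate. Each of these fits lost 1 library, and the cause of the difference was not tested.

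A replicate block gave 7605, 4305 and 6815 calls in the 3 comparisons and changed no member's call. Same-numbered libraries deviated together with correlations of 0.119 (CTR and miR-294), 0.132 (CTR and siMbd2) and 0.022 (miR-294 and siMbd2), so the numbers were not treated as pairs. Depth is unknown, so counting error could not be given, and levels under 1 RPKM, such as Cdkn2c with miR-294, carry few significant digits.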
